A study of Rattus norvegicus with 6 samples.

Results

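The sirtuins Sirt1 to Sirt7 were examined as transcripts in rat nucleus pulposus cells (NPCs), the cells of the gel-like core of the intervertebral disc. The members were chosen by symbol, and all 7 were among the 20264 rows of the combined count table. All 7 passed the filter on low counts, which left 11426 genes to be tested. Of the per-sample count files, the unstranded counts of the same genes were used beside the combined table.

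RNA-seq was performed on 6 libraries of primary NPCs, isolated from the tail discs of male wild type Sprague-Dawley rats and grown in culture medium with serum. In the TBHP group (n = 3), cells were given tert-butyl hydroperoxide, an oxidant used to bring on oxidative stress and senescence. In the TBHP+FGF21 group (n = 3), the oxidant was combined with recombinant rat FGF21, a secreted metabolic hormone of the fibroblast growth factor family. Both groups therefore received TBHP, and no untreated group was part of the comparison. The treatment labels of the TBHP+FGF21 libraries name FGF21 in replicate 1, FGF22 in replicate 2 and FGF23 in replicate 3, whereas the treatment protocol and the series design give FGF21 throughout, and the 3 libraries were kept as 1 group. The replicates are described as biological, but no source ties a library to an animal, so p-values measure the spread between these libraries. The sources used here do not give the concentrations or times for these libraries.

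Sirtuins are enzymes that remove acetyl or other acyl groups from lysines of proteins and consume NAD+ in each reaction, which links their activity to the metabolic state of the cell. Sirt1, Sirt6 and Sirt7 act mainly in the nucleus, Sirt2 mainly in the cytosol, and Sirt3, Sirt4 and Sirt5 in the mitochondria. In the disc and in cartilage, Sirt1 is known as a factor linked to resistance to oxidative stress and to senescence. Read counts reflect transcripts, not protein or enzyme activity. In bulk libraries, fewer cells with a transcript and less of it per cell cannot be told apart.

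Depth ran from 18277732 to 22426190 counts per library in the combined table. Levels are given as CPM, counts per 1000000 reads after scaling of each library by the TMM method, and a count of 0 allows up to 3 counts, or 0.134 to 0.164 CPM, by counting error alone. The labelled cell type was checked against its markers. Acan, the main proteoglycan of the disc, averaged 2709 ± 218 CPM with TBHP and 3565 ± 749 CPM with TBHP+FGF21 (SD, n = 3 each), while the notochordal genes Tbxt and Shh were at 0 counts in every library and Krt18 had 5 counts in all. Col1a1, a collagen of the annulus and of fibroblasts, was at 39942 ± 2223 CPM and 34931 ± 6335 CPM (SD, n = 3 each), and Col2a1, the collagen of cartilage and nucleus pulposus, was at 0.600 ± 0.187 and 0.495 ± 0.0715 CPM (SD, n = 3 each). Col1a2, the partner chain of Col1a1, was also low, at 0.544 ± 0.201 and 0.583 ± 0.136 CPM (SD, n = 3 each), so a low collagen row in this table stood beside a very high row of its partner. Ptprc and Adgre1 of macrophages, Cdh5 and Kdr of endothelium, and Hba-a1 and Hbb of red blood cells were at 0. Other members of these lists were not. Cd14 of macrophages was at 32.3 ± 2.93 and 28.7 ± 3.20 CPM, and Cd68 at 1.64 ± 0.371 and 1.72 ± 0.471 CPM (SD, n = 3 each). Csf1r, Lyz2 and Aif1 of macrophages had 20, 7 and 1 counts in all, Tek and Vwf of endothelium 38 and 58, and Alas2 of red blood cells 1. Of the marker lists, 10 of 17 nucleus pulposus and notochord symbols (T and Tbxt among them name 1 gene), 8 of 8 annulus and fibroblast genes, 2 of 7 macrophage genes, 1 of 4 skeletal muscle genes and 0 of the endothelial or red blood cell genes could be tested. With all 6 libraries, none passed an adjusted p of 0.05 by edgeR, DESeq2 or limma-voom. At an unadjusted p under 0.05 by edgeR, reached by 8.92% of all genes tested, there were 2 nucleus pulposus genes (Acan and Pax1) and 1 fibroblast gene (Pdgfra). Each of these was higher in the TBHP+FGF21 group. Of the 10 nucleus pulposus genes tested, 4 were fitted higher and 6 lower, with a median log2 fold change of -0.13, and Krt8, Cd24 and Nog were at -0.43, -0.55 and -0.53. Their part in the sirtuin values was not tested. Replicate 2 of the TBHP+FGF21 group stood apart, with a Spearman's rho across genes of 0.996 to each TBHP library and of 0.989 and 0.992 to the others of its own group. TBHP replicate 3 was likewise nearer to TBHP+FGF21 replicates 1 and 2 (0.994 and 0.996) than to its own group (0.993 each). Without TBHP+FGF21 replicate 2, 867 genes in place of 1 had an adjusted p under 0.05 by edgeR, and without TBHP replicate 3 there were 0, against 1771 at an unadjusted p under 0.05, so sirtuin results are also given without single libraries where these moved them. Of the markers, those 867 genes held Acan, Pax1, Foxf1 and Pdgfra, fitted higher (log2 fold changes of 0.54, 0.75, 0.42 and 0.58), and Acta1 of skeletal muscle, fitted lower (-1.09).

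The answer for Sirt1 depended on which deposited count was read, and both are given throughout. In the combined table, Sirt1 was the only sirtuin with a higher level in the TBHP+FGF21 group that passed the adjusted test, at 3.10 times the TBHP level (95% interval 2.33 to 4.12). In the per-sample files, the level in the TBHP+FGF21 group was 0.926 times that of the TBHP group (95% interval 0.728 to 1.18), which did not pass. The other 6 sirtuins did not pass the test with either source.

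Sirt1 is the nuclear deacetylase of FOXO factors and PGC-1alpha. Its gene lies on chromosome 20. The bases before its start, as RefSeq places it, are shown because Sirt1 is the gene on which the results turn. They are at chr20:25305703-25305952 on the plus strand of GRCr8, 5′ to 3′, with each E-box (CACGTG, a site recognized by clock and MYC family factors) in capitals. The build behind the counts is not given in the sources used here, and the sequence is a description of the locus only.
Sirt1 upstream: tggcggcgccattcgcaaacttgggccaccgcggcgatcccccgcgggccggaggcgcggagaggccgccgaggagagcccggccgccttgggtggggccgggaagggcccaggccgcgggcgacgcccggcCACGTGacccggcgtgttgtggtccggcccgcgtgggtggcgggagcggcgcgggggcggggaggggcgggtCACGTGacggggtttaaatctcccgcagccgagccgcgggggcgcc
The E-boxes begin 118 and 46 bases before the start. In RefSeq's windows of 300 bases (250 before to 50 after the start), searched on both strands, 6.65% of 27457 promoters held CACGTG, and none of the other 5 sirtuins with an entry (Sirt2, Sirt3, Sirt4, Sirt5 and Sirt7) did. The Sirt1 window had a GC content of 78.7% against a median of 52.3% over all windows, and 47 CpG dinucleotides against a median of 7. The GC box GGGCGG occurred 3 times in the Sirt1 window, 3 times in that of Sirt3 and once in that of Sirt7, and 34.9% of promoters held at least 1. The letters TGACGTCA (1.91% of promoters), TGTTTAC (3.76%) and TGANTCA (7.33%), as bound by CREB, FOXO and AP-1 factors, were in none of the 6 sirtuin windows. The motifs were not related to the levels of the transcripts.

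In the combined table, Sirt1 had 32, 38 and 35 counts in TBHP replicates 1, 2 and 3, and 121, 111 and 113 counts in TBHP+FGF21 replicates 1, 2 and 3. In the per-sample files, the row of Sirt1 (ENSRNOG00000051592) had 92, 138 and 125 unstranded counts in the TBHP group and the same 121, 111 and 113 in the TBHP+FGF21 group. The sources thus gave identical values in the TBHP+FGF21 group and different values in each TBHP library. The per-sample count was higher by 60, 100 and 90 reads in TBHP replicates 1, 2 and 3, each a whole multiple of 10. The combined count was between 27.5% and 34.8% of the per-sample count. Exact Poisson 95% intervals, which cover counting error only, ran from 21.9 to 45.2, from 26.9 to 52.2 and from 24.4 to 48.7 for the combined counts. For the per-sample counts they ran from 74.2 to 112.8, from 116 to 163 and from 104 to 149, so the intervals of the sources did not meet in any TBHP library.

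**Figure D1:**
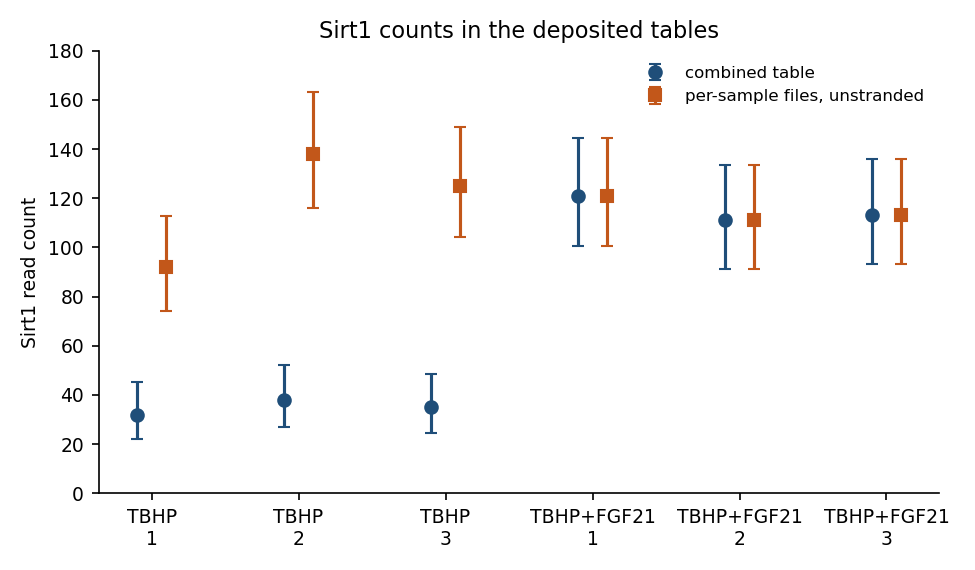
Sirt1 read counts (vertical axis, reads) in each library (horizontal axis), with exact Poisson 95% intervals, from the combined table (circles) and from the unstranded column of the per-sample files (squares). The 3 TBHP libraries sit at 32 to 38 reads in the combined table and at 92 to 138 reads in the per-sample files, and the TBHP+FGF21 libraries have the same 111 to 121 reads in both.

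When rows were matched by counts alone, the discrepancy was seen only for Sirt1. A row with few counts could match that of another gene, so the matching says little about such rows. Of the 14882 rows of the combined table with at least 1 count, 14859 had the same counts in all 6 libraries as a row of the per-sample files, 22 averaged 2 such rows, and only Sirt1 equalled neither. No per-sample row held the combined TBHP counts of Sirt1 in the unstranded or in either strand column, while 1 row, that of ENSRNOG00000051592, held its 3 TBHP+FGF21 counts. The deposited files do not pair identifiers with symbols, so this match is what names the row, and the 6 nearest rows that could be named, Ilrun, Cep85l, Fam241b, Prmt2, Tspyl4 and Mfsd4b1, all belong to chromosome 20 like Sirt1. Sirt2 to Sirt7 each matched exactly 1 per-sample row in all 6 libraries. These rows were ENSRNOG00000020102 for Sirt2 and ENSRNOG00000013828 for Sirt3, both on chromosome 1 in RefSeq, ENSRNOG00000001151 for Sirt4 on chromosome 12, ENSRNOG00000017866 for Sirt5 on chromosome 17, ENSRNOG00000006393 for Sirt6 on chromosome 7 and ENSRNOG00000036683 for Sirt7 on chromosome 10. Where the lower TBHP counts of the combined table came from was not tested.

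The strand columns of the per-sample files also bear on the Sirt1 row. In TBHP replicates 1, 2 and 3 the strand columns held 37 and 55, 78 and 60, and 65 and 60 reads, and in the TBHP+FGF21 replicates 67 and 54, 59 and 52, and 62 and 51. In each library the pair summed exactly to the unstranded count. With the first strand column alone Sirt1 was at a log2 fold change of -0.00077 (SE 0.22, adjusted p = 0.999 by edgeR), and with the second it was -0.23 (SE 0.20, adjusted p = 0.702 by edgeR). The combined TBHP counts of 32, 38 and 35 lay below both strand columns in all 3 TBHP libraries. The library kit is described as directional, yet the strand columns held nearly equal totals, at a ratio of 0.977 to 0.986 per library.

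With the combined table, Sirt1 was at 1.79, 1.72 and 1.64 CPM in the TBHP libraries and at 5.73, 5.31 and 4.93 CPM in the TBHP+FGF21 libraries. The means were 1.72 ± 0.0735 CPM and 5.32 ± 0.403 CPM (SD, n = 3 each), and the groups did not overlap. This gave a log2 fold change of 1.63 (standard error 0.19, 95% interval 1.22 to 2.04, adjusted p = 0.0200 by the quasi-likelihood test of edgeR, adjusted by Benjamini-Hochberg). Sirt1 had the smallest p of all 11426 genes and was the 1 gene with an adjusted p under 0.05, which is 0.00875% of those tested. The next smallest adjusted p by edgeR was 0.553. By limma-voom the adjusted p of Sirt1 was 0.0530, which did not pass, and by the DESeq2 Wald test it was 2.62e-06, which did. With other scalings, other filters on low counts or a replicate block, it was 0.000593 to 0.0206 by edgeR. An exact two-sided permutation test of its level over libraries gave p = 0.1, the smallest that 3 libraries against 3 allow. The adjusted p was 0.262, 0.274 and 0.184 by edgeR without TBHP replicate 1, 2 or 3 and 0.163 without TBHP+FGF21 replicate 1, while the log2 fold change stayed between 1.59 and 1.69 whichever library was left out. Without TBHP+FGF21 replicate 2, the library that stood apart, it was 1.64 (adjusted p = 0.000268 by edgeR), in a fit in which 867 genes were called. The unadjusted p by edgeR was 7.69e-07 there and 1.75e-06 with all 6 libraries.

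With the per-sample row, Sirt1 was at 4.97, 6.04 and 5.69 CPM in the TBHP libraries and at 5.57, 5.15 and 4.79 CPM in the TBHP+FGF21 libraries. The CPM of the TBHP+FGF21 group differ slightly from those above because the per-sample files hold more genes and so larger library totals. The means were 5.57 ± 0.547 CPM and 5.17 ± 0.392 CPM (SD, n = 3 each), and the groups overlapped. This gave a log2 fold change of -0.11 (standard error 0.16, 95% interval -0.46 to 0.24, adjusted p = 0.817 by edgeR), and an exact permutation test gave p = 0.4. Without TBHP+FGF21 replicate 2 it was -0.098 (adjusted p = 0.794 by edgeR). Among the 12482 genes tested in the per-sample files, Sirt1 ranked 7630 by p, and no gene (0%) had an adjusted p under 0.05 by edgeR, against 1082 genes (8.67%) with an unadjusted p under 0.05, 2 with an adjusted p under 0.05 by DESeq2 and 0 by limma-voom. When the Sirt1 row alone was replaced in the combined table, it was at a log2 fold change of -0.12 (adjusted p = 0.806 by edgeR). The difference of 3.10 times therefore rested on the TBHP counts of the combined table.

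The spread of the Sirt1 values within the TBHP group also depended on the source. With 32 to 38 reads per library, counting alone gives a coefficient of variation of 16.9%, and the 3 combined TBHP values varied by 4.28%, a variance 0.0621 times that of counting. The per-sample TBHP values varied by 9.82% against 9.19% from counting, a variance ratio of 1.07. In the TBHP+FGF21 group the ratio was 0.673. With 3 libraries such ratios are imprecise, and they are given as a description with no test. Among the other sirtuins the ratio ranged from 0.695 for Sirt7 to 13.8 for Sirt6, both in the TBHP group.

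**Figure D2:**
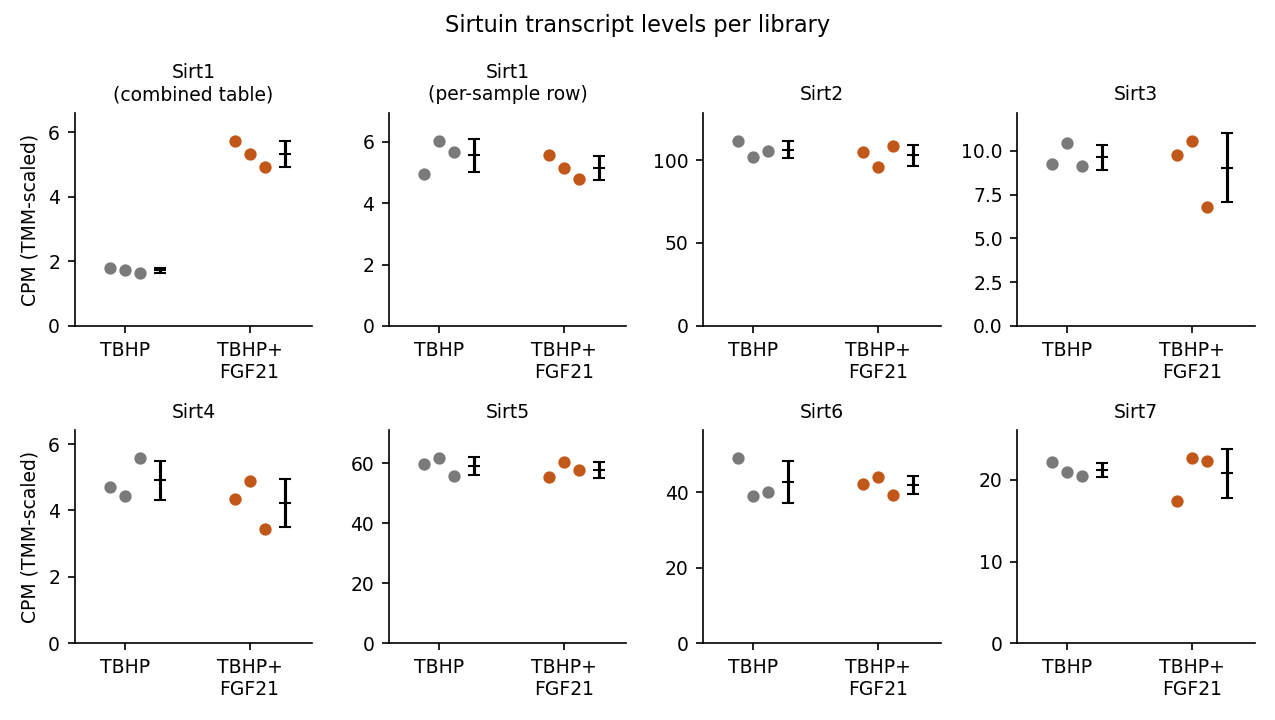
Level of each sirtuin (vertical axis, CPM after TMM scaling, from 0, each panel with its own scale) in the 3 TBHP and 3 TBHP+FGF21 libraries (points, replicates 1 to 3 from left to right), with the mean and SD beside them and Sirt1 drawn once per source. The groups are apart only in the panel of Sirt1 from the combined table, at 1.72 against 5.32 CPM, and overlap in all others.

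The other nuclear sirtuins, Sirt6 and Sirt7, did not pass the test. Sirt6, which deacetylates histone H3 and acts in DNA repair and telomere upkeep, had 878, 860 and 853 counts in the TBHP group and 889, 920 and 902 in the TBHP+FGF21 group. Its level was 49.0, 39.0 and 40.0 CPM in the TBHP libraries and 42.1, 44.0 and 39.3 CPM in the TBHP+FGF21 libraries. TBHP replicate 1, the library with the fewest reads, was the highest of all 6, and the others lay close together. The log2 fold change was -0.028 (95% interval -0.27 to 0.21, adjusted p = 0.937 by edgeR), and it was 0.089 without TBHP replicate 1 and 0.023 without TBHP+FGF21 replicate 3, so its sign rested on single libraries.

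Sirt7, a deacetylase of the nucleolus linked to ribosomal RNA synthesis, had 398, 463 and 438 counts in the TBHP group and 367, 474 and 513 in the TBHP+FGF21 group. It was at 22.2, 21.0 and 20.5 CPM and at 17.4, 22.7 and 22.4 CPM, respectively. The TBHP values were close to each other, while TBHP+FGF21 replicate 1 was the lowest of the 6 and the remaining libraries of that group were the highest. The difference on the log2 scale was -0.029 (95% interval -0.30 to 0.24, adjusted p = 0.942 by edgeR). It was 0.096 without TBHP+FGF21 replicate 1 and 0.011 without TBHP replicate 1. The summed level of Sirt6 and Sirt7 was 63.9 ± 6.37 CPM with TBHP and 62.6 ± 3.70 CPM with TBHP+FGF21 (SD, n = 3 each, exact permutation p = 0.8). Sirt6 alone averaged 42.7 and 41.8 CPM of this sum.

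Sirt2, the mainly cytosolic deacetylase of tubulin, had the most reads of the family, with 1998, 2245 and 2247 counts in the TBHP group and 2208, 2005 and 2481 in the TBHP+FGF21 group. Its level was 112, 102 and 105 CPM in the TBHP libraries and 105, 96.0 and 108 CPM in the TBHP+FGF21 libraries, and the groups overlapped. This gave a log2 fold change of -0.046 (standard error 0.090, 95% interval -0.24 to 0.15, adjusted p = 0.870 by edgeR), a fold of 0.969 (0.845 to 1.11). Without TBHP+FGF21 replicate 2, which had the lowest level, it was 0.011 (adjusted p = 0.961 by edgeR). Counts per gene also grow with transcript length, which was not used here, so levels are compared between groups and not between sirtuins.

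The 3 mitochondrial sirtuins had fitted differences below 0, and none passed the test. Sirt3, the main deacetylase of the mitochondrial matrix with Sod2 and Idh2 among its targets, had 166, 231 and 195 counts in the TBHP group and 206, 221 and 156 in the TBHP+FGF21 group. It was at 9.27, 10.5 and 9.14 CPM in the TBHP libraries and at 9.76, 10.6 and 6.80 CPM in the TBHP+FGF21 libraries. TBHP+FGF21 replicate 3 was well below the other 5 libraries, which lay close together. The log2 fold change was -0.093 (95% interval -0.47 to 0.28, adjusted p = 0.855 by edgeR), 0.084 without TBHP+FGF21 replicate 3 and -0.21 without TBHP+FGF21 replicate 2.

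Sirt4, which acts on lipoyl and acyl groups of mitochondrial enzymes and as an inhibitor of glutamate dehydrogenase, had 84, 98 and 119 counts in the TBHP group and 92, 102 and 79 in the TBHP+FGF21 group. Its level was 4.69, 4.44 and 5.58 CPM and 4.36, 4.88 and 3.44 CPM, respectively. The highest value was in TBHP replicate 3 and the lowest in TBHP+FGF21 replicate 3, and the other values were mixed. Of Sirt2 to Sirt7, the largest fitted difference was that of Sirt4, at -0.22 on the log2 scale (standard error 0.19, 95% interval -0.63 to 0.19, adjusted p = 0.687 by edgeR). It stayed below 0 whichever library was left out, between -0.32 and -0.080. A log2 difference as large as -0.63 lay inside its interval, so a decrease of that size could not be told from no difference at 79 to 119 reads per library.

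Sirt5, which removes succinyl, malonyl and glutaryl groups and acts on the urea cycle enzyme Cps1, had 1073, 1363 and 1192 counts in the TBHP group and 1169, 1266 and 1323 in the TBHP+FGF21 group. It was at 59.9, 61.8 and 55.9 CPM and at 55.4, 60.6 and 57.7 CPM, respectively. The groups overlapped along most of their range. This gave a log2 fold change of -0.032 (standard error 0.090, 95% interval -0.23 to 0.16, adjusted p = 0.905 by edgeR) and 0.0096 without TBHP+FGF21 replicate 1. The summed level of the 3 mitochondrial sirtuins was 73.7 ± 3.06 CPM with TBHP and 71.2 ± 4.31 CPM with TBHP+FGF21 (SD, n = 3 each, exact permutation p = 0.4). Sirt5 alone averaged 59.2 and 57.9 CPM, so this sum says little about Sirt3 or Sirt4.

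**Figure D3:**
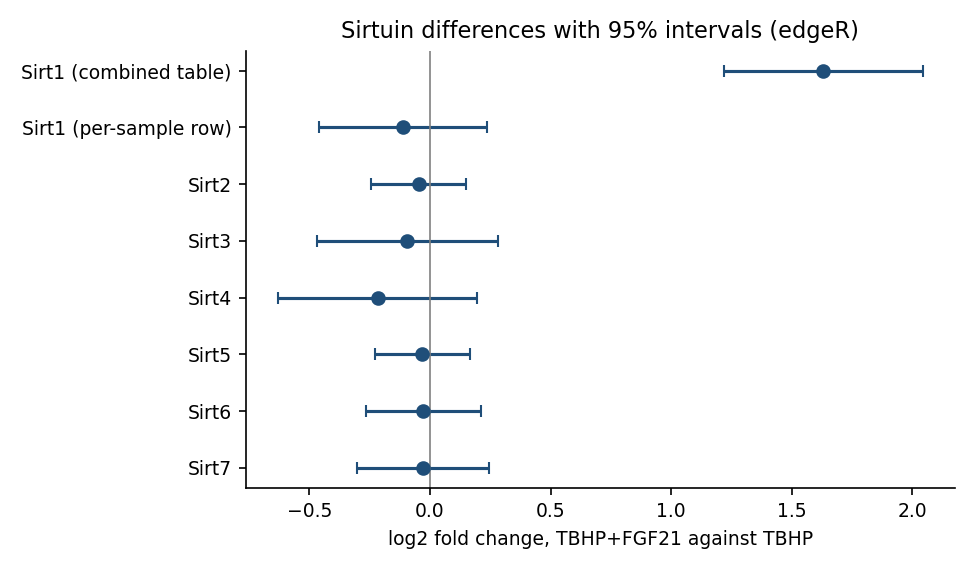
Log2 fold change of each sirtuin between the TBHP+FGF21 and TBHP groups (horizontal axis, edgeR estimate as a point, 95% interval as a bar), with Sirt1 shown for both sources of counts. Only Sirt1 from the combined table, at 1.63 (1.22 to 2.04), has an interval that leaves out 0, and Sirt1 from the per-sample row, at -0.11 (-0.46 to 0.24), lies among the other sirtuins.

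Across the family, 1 of 7 sirtuins with the combined table and 0 of 7 with the per-sample files had an unadjusted p under 0.05, where 8.92% and 8.67% of all genes tested did. The groups did not overlap for 1 of 7 sirtuins in the combined table, against 9.90% of all genes, and that one was Sirt1. All 6 of Sirt2 to Sirt7 had fitted differences below 0, between -0.22 and -0.028, beside a median over all genes of -0.0052 and 51.1% of genes below 0. Of these 6, only Sirt4 kept its sign whichever library was left out. The summed level of Sirt2 to Sirt7 was 243.9 ± 11.2 CPM with TBHP and 236.7 ± 2.72 CPM with TBHP+FGF21 (SD, n = 3 each, exact permutation p = 0.5). The largest part of this sum was Sirt2, with means of 106 and 103 CPM. With Sirt1 added, the means were 245.6 and 242.0 CPM from the combined table (exact permutation p = 0.9) and 249.5 and 241.9 CPM with the per-sample Sirt1 (exact permutation p = 0.3).

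**Figure D4:**
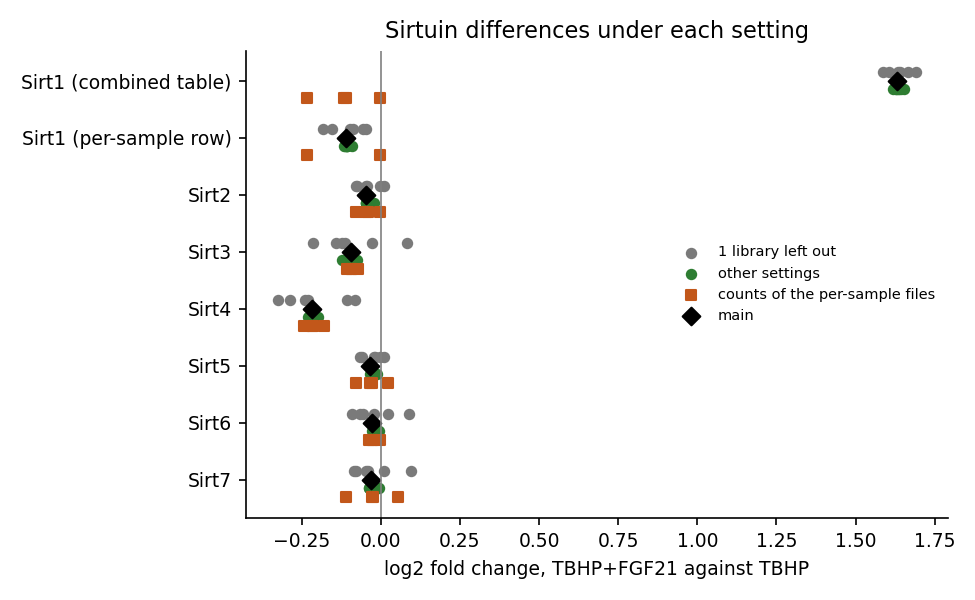
Log2 fold change of each sirtuin (horizontal axis) as reported (diamond), with 1 library left out (grey circles), under other normalizations, filters, tests and the replicate block (green circles), and from the per-sample counts (squares, for Sirt1 from the combined table also with its row alone replaced). For Sirt1 from the combined table, the squares lie between -0.23 and -0.00077 and all other points between 1.59 and 1.69, whereas the points of the other genes lie around 0, with Sirt4 below it in every case.

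Genes of NAD+ metabolism, sirtuin regulators and targets, and zinc-dependent histone deacetylases were described from lists compiled by hand. Of 18 genes of NAD+ metabolism, 16 could be tested, 9 of them higher and 7 lower with FGF21 (median log2 fold change 0.047). None had an adjusted p under 0.05 by edgeR, and 2 of 16 were lower with an unadjusted p under 0.05, beside 8.92% of all genes tested in either direction. These were Nadk2, the mitochondrial NAD kinase, and Nnmt, which methylates nicotinamide. Nadk2 was at 4.08, 3.04 and 3.70 CPM in the TBHP libraries and at 2.65, 2.49 and 2.53 CPM in the TBHP+FGF21 libraries, with a log2 fold change of -0.49 (adjusted p = 0.553 by edgeR). Nnmt was at 26.1, 23.6 and 20.1 CPM and at 17.8, 21.4 and 12.9 CPM, with a log2 fold change of -0.42 (adjusted p = 0.553 by edgeR). Without TBHP+FGF21 replicate 2 the log2 fold change of Nnmt was -0.59 (adjusted p = 0.0267 by edgeR), in the fit in which 867 genes in all were called. Among the tested genes of this list, the groups did not overlap for Nadk2 and Nampt, fitted lower, and for Nadk and Parp1, fitted higher. They overlapped for Nnmt and all the others. Of all genes tested, 9.90% had groups that did not overlap. Nampt, the rate-limiting enzyme of NAD+ salvage, was at 37.1 ± 0.919 and 34.6 ± 1.01 CPM (SD, n = 3 each, adjusted p = 0.699 by edgeR), and Parp1, an NAD+-consuming DNA repair enzyme, was at 76.4 ± 2.28 and 84.1 ± 6.31 CPM (SD, n = 3 each, adjusted p = 0.608 by edgeR). The genes of this list with the smallest p among those fitted higher, Naprt and Nadk, had log2 fold changes of 0.20 and 0.14 (adjusted p = 0.597 and 0.606 by edgeR).

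Of 11 regulators and partners of Sirt1, 9 could be tested, with 4 higher, 5 lower and a median of -0.084, and none had an unadjusted p under 0.05 by edgeR, DESeq2 or limma-voom. Usp22, a deubiquitinase that stabilizes Sirt1, was at a log2 fold change of 0.095, and Stk11, the kinase upstream of AMPK, at 0.077. Rps19bp1, an activator of Sirt1 also called AROS, was at -0.23, and Prkaa1, a catalytic subunit of AMPK, at -0.13. The adjusted p of these 4 genes lay between 0.596 and 0.776 by edgeR.

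Of 22 listed symbols of deacetylation targets in the nucleus and cytosol, of which Bmal1 and its earlier symbol Arntl name 1 gene, 18 could be tested, with 9 higher, 9 lower and a median of 0.0030. None had an adjusted p under 0.05 by edgeR, while 3 were higher and 1 was lower at an unadjusted p under 0.05, which is 4 of 18 beside 8.92% of all genes tested. Crtc2, a coactivator of CREB that Sirt1 deacetylates, was at 43.3, 42.5 and 50.6 CPM in the TBHP libraries and at 58.3, 47.2 and 66.3 CPM in the TBHP+FGF21 libraries (log2 fold change 0.33, adjusted p = 0.553 by edgeR). Acss2, the cytosolic acetyl-CoA synthetase that Sirt1 deacetylates, was also at 0.33, and Kat5, an acetyltransferase named here after its values were seen, at 0.21. The lower gene was Pck2, at -0.30, which the list holds although it encodes the mitochondrial form of PEP carboxykinase, and the next by p, Hif1a, was at -0.13. Without TBHP+FGF21 replicate 2, the adjusted p was under 0.05 for Crtc2 (log2 fold change 0.46, adjusted p = 0.0193 by edgeR) and Pck2 (-0.39, adjusted p = 0.0445 by edgeR), in a fit in which 867 genes in all were called. Foxo3, the factor through which Sirt1 acts on stress resistance, was at 9.10, 8.71 and 11.8 CPM in the TBHP libraries and at 9.81, 11.3 and 11.5 CPM in the TBHP+FGF21 libraries (log2 fold change 0.14, adjusted p = 0.757 by edgeR). Foxo1, a related factor, was at -0.019 (adjusted p = 0.964 by edgeR). Ppargc1a, which encodes PGC-1alpha, had 1 count in all and was below the filter.

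Of 19 listed targets of the mitochondrial sirtuins, 18 could be tested, and 9 were higher and 9 lower (median 0.00046). None had an adjusted p under 0.05 by edgeR, and 1 of 18 was lower with an unadjusted p under 0.05, beside 8.92% of all genes tested. Sod2, the mitochondrial superoxide dismutase activated by Sirt3, was at 52.1 ± 6.06 and 48.4 ± 6.34 CPM (SD, n = 3 each, adjusted p = 0.761 by edgeR). Idh2 and Glud1, further matrix enzymes, were at 0.19 and 0.14, and Slc25a5, an ADP/ATP carrier, was at -0.18.

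All 11 zinc-dependent histone deacetylases, which do not use NAD+, could be tested, with 6 higher, 5 lower and a median of 0.00026. None had an unadjusted p under 0.05 by edgeR or limma-voom, and 2 of 11 had by the DESeq2 Wald test. Of all 11426 genes tested, 1019, 996 and 912 had such a p by edgeR, limma-voom and DESeq2, respectively. By edgeR, the smallest p among those fitted higher belonged to Hdac9 and Hdac5, class IIa enzymes, with log2 fold changes of 0.63 and 0.30. Without TBHP+FGF21 replicate 2 these were 0.93 and 0.45 (adjusted p = 0.0151 and 0.0243 by edgeR), in the fit in which 867 genes in all were called. Hdac11 and Hdac6 were at -0.38 and -0.23. With all 6 libraries, DESeq2 and limma-voom also gave 0 genes with an adjusted p under 0.05 in each of these 5 lists.

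**Figure D5:**
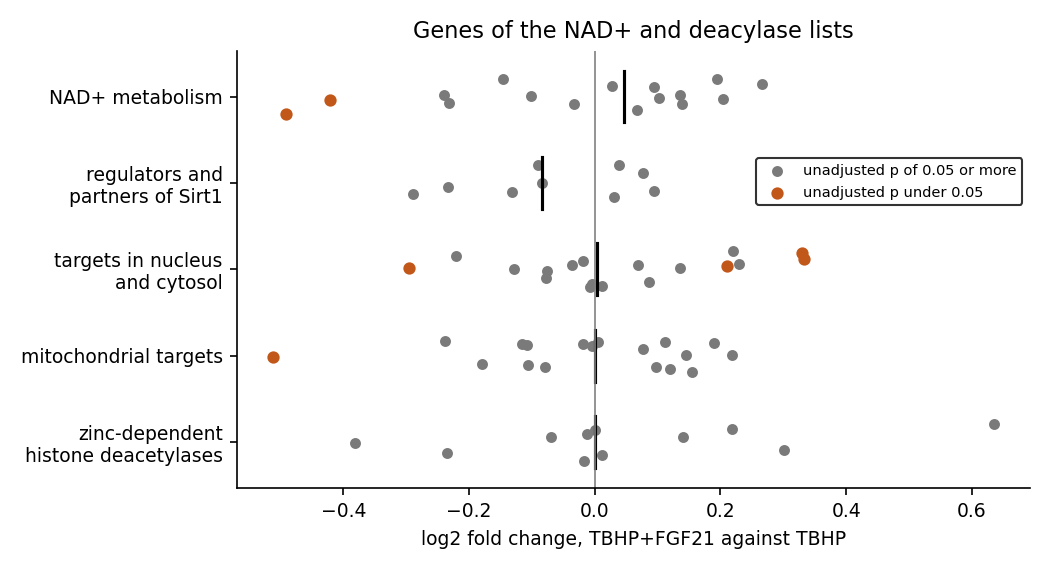
Log2 fold changes between the TBHP+FGF21 and TBHP groups (horizontal axis) of the tested genes of each list (rows), with the list median as a vertical bar and genes with an unadjusted p under 0.05 in orange. The medians lie between -0.084 and 0.047, and the orange points are 2 NAD+ metabolism genes, 4 genes of the list of targets in nucleus and cytosol and 1 mitochondrial target.

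The genes whose level over the 6 libraries was most like that of Sirt1 differed with the source of its counts. With the combined table they were Fosb, an AP-1 factor (Pearson's r = 0.993 of log2 CPM), Stk35 (0.976) and Hoxc5 (0.959), out of 11421 genes compared. With the per-sample row they were Noc3l (0.993), Eri1 (0.990) and Scfd1 (0.982). An r above 0.9 was reached by 60 genes with the combined table and by 91 with the per-sample row, and the 6 points of each r share depth and treatment, so these are descriptions. For Sirt3 to Sirt7 the most similar gene was Ubr7 for Sirt3 (0.984), Atp10a for Sirt4 (0.991), Mrpl27 for Sirt5 (0.998), Clip1 for Sirt6 (0.990) and Rps6ka4 for Sirt7 (0.980).

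Genes next to the sirtuins in the RefSeq annotation are given as a description of the loci. Herc4 and Dnajc12, on either side of Sirt1, had log2 fold changes of -0.12 and 0.35 (adjusted p = 0.675 and 0.682 by edgeR). Nfkbib beside Sirt2 was at 0.26 and Nol7 beside Sirt5 at -0.27, each with an unadjusted p under 0.05 and an adjusted p of 0.553 by edgeR. Of all genes tested, 8.92% had such an unadjusted p. Pla2g1b beside Sirt4, Ankrd24 beside Sirt6 and the genes that overlap Sirt2 and Sirt4 were not tested. The other neighbours tested, Rinl, Ric8a, Psmd13, Pxn, Gfod1, Tle6, Pcyt2 and Mafg, had adjusted p-values between 0.608 and 0.933 by edgeR.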

How the data were processed

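RNA-seq counts of 6 libraries (TBHP, n = 3, and TBHP+FGF21, n = 3) were analysed, grouped by titles and treatment labels. The files deposited by the authors hold raw counts of reads, one per library by Ensembl identifier (unstranded and by strand) and a combined table by symbol. The deposited combined table was handled as estimated counts only because 22 rows hold means of a pair of identifiers, and these were rounded up where not whole. The submitters' processing notes name STAR and featureCounts, and the genome build and annotation are not given in the sources used here. Totals and tests leave out unmapped (1.24% to 1.40%) and multimapping reads (6.27% to 7.02%), and those that fell outside genes (9.13% to 10.4%) or on several (1.72% to 2.09%).

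The combined table was fitted with edgeR 4.0.16 in R 4.3.3, using TMM, filterByExpr (minimum count 10, minimum total 15), condition as the only term, glmQLFit and glmQLFTest, and p was adjusted over 11426 genes by Benjamini-Hochberg. A standard error is the log2 fold change divided by √F, and 95% intervals use the total degrees of freedom of the test. The same fit was made on the per-sample counts (12482 genes). Single levels were compared by exact two-sided permutation tests, and likeness by Pearson's r of log2(CPM + 0.5). Alternatives were DESeq2 1.42.0, limma-voom (limma 3.58.1), other scalings and filters, strand columns, a replicate block and leaving out each library. The fits were also run on simulated counts as a check of the code. No simulated library stood apart from its group as in these data.

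The 7 sirtuins, the lists and the tests were chosen with earlier results of these data known. Of each list the 2 genes with the smallest p in each direction were named, besides Nampt, Parp1, Foxo3, Foxo1, Ppargc1a and Sod2, and a few genes that these rules pick are not reported here. Rows were named by RefSeq (GRCr8) for chromosomes, neighbours and promoters, and 6 of 7 sirtuins had a promoter entry. E2f1, Ep300 and Kat8 were not analysed here.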

Additional observations from a re-analysis of the deposited data

How the results depend on the processing

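Sirt1 was the result that turned with the source of the counts. Its log2 fold change of 1.63 became -0.11 with the per-sample unstranded counts, -0.12 with the row alone replaced, and -0.00077 and -0.23 with the strand columns 3 and 4, since these sources hold other TBHP counts. It was 1.62 with limma-voom, with an adjusted p of 0.0530 there, and 1.64 with the DESeq2 Wald test, with an adjusted p of 2.62e-06. Other scalings, other filters and the replicate block gave 1.63 to 1.65 by edgeR, with an adjusted p of 0.000593 to 0.0206. When 1 library was left out the log2 fold change ranged from 1.59 to 1.69, and from -0.18 to -0.048 with the per-sample row. In these fits of the combined table the unadjusted p by edgeR was 7.69e-07 to 2.37e-05, beside 1.75e-06 with all 6 libraries. The adjusted p by edgeR was 0.000268 to 0.274, and by its definition it also depends on the p-values of all other genes tested. The other sirtuins missed the threshold in every setting. Leaving out 1 library gave ranges of -0.077 to 0.011 for Sirt2, -0.21 to 0.084 for Sirt3, -0.32 to -0.080 for Sirt4, -0.065 to 0.0096 for Sirt5, -0.090 to 0.089 for Sirt6 and -0.085 to 0.096 for Sirt7. Strand column 3 gave 0.023 for Sirt5 and strand column 4 gave 0.055 for Sirt7. The cause of these changes of sign was not tested.

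Genes with an adjusted p under 0.05 numbered 1 as reported. There were 0 with the per-sample counts, the replaced row, either strand column or limma-voom, against 1082, 1018, 956, 1049 and 996 with an unadjusted p under 0.05. There were 4 with the DESeq2 Wald test, 5 with no filter on low counts, 2 with the replicate block, and 0 to 867 when 1 library was left out, the 867 without TBHP+FGF21 replicate 2. Genes with an unadjusted p under 0.05 numbered 1019 as reported and 337 to 2732 when 1 library was left out (510, 337 and 1771 without TBHP replicate 1, 2 or 3 and 479, 2732 and 341 without TBHP+FGF21 replicate 1, 2 or 3). In the per-sample files the number with an adjusted p under 0.05 was 0 as reported, 101 with no filter and 798 without TBHP+FGF21 replicate 2. The cause was not tested.

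Replicate numbers are shared by the groups. Deviations of same-numbered libraries correlated at -0.122, 0.213 and 0.149, and those of differently numbered libraries at -0.263 to 0.182. These values do not decide whether the libraries are paired, and the number was not treated as a pairing. With the number as a block, Sirt1 was at 1.63 in the combined table and at -0.11 with the per-sample row, and 1599 genes had an unadjusted p under 0.05. At 32 to 138 reads for Sirt1 and 79 to 119 for Sirt4, counting error limits what could be seen.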
